A study of Mus musculus with 3 samples.

Results

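The corticosteroid and CRH stress axis genes are 10 genes chosen by name from the 46073 genes with an RNA-seq value: the receptors Nr3c1 and Nr3c2, their co-chaperones Fkbp5 and Fkbp4, the enzyme gene Hsd11b1, the target Tsc22d3, and Crh, Crhbp, Crhr1 and Crhr2. All 10 were found in the table. The choice rested on their names, but was made with earlier results of these data known. The tissue was medial prefrontal cortex (mPFC), a frontal cortical region, of untreated C57BL/6 mice aged 3 months. RNA is the assay used here, and the MeDIP and input DNA samples of the same tissue were not analysed here. The design text names 3 RNA replicates, but the table holds 1 value per gene, which leaves every level without an error and every difference without a test or replicate check. Levels are given in FPKM, fragments scaled to transcript length and to the mapped total, which can be ranked between genes of 1 sample.

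Corticosterone, the main glucocorticoid of mice, enters cells and binds 2 related nuclear receptors, the glucocorticoid receptor and the higher-affinity mineralocorticoid receptor. Both wait in the cytoplasm in a complex with heat shock proteins and co-chaperones, and then act on target genes in the nucleus. CRH, the peptide that starts the hormonal stress response from the hypothalamus, is also made by cortical interneurons and acts there on G protein-coupled receptors.

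Of the 10 genes 9 were at 1 FPKM or more, the floor used for detection, against 31.5% of all genes and 58.6% of the 20631 protein-coding genes. Their median was 11.1 FPKM, and the median of all protein-coding genes was 2.58 FPKM. Among the 12081 protein-coding genes at 1 FPKM or more the median was 9.86 FPKM, close to that of the 10 genes. The steroid arm was present at middle to high levels throughout: its 6 genes lay between 10.7 and 46.5 FPKM. The CRH arm was uneven, with the peptide at 1.96 FPKM, its binding protein at 14.3 FPKM, and its receptors at 7.66 FPKM for Crhr1 and 0.452 FPKM for Crhr2. A level in whole tissue cannot tell few cells with much RNA from many cells with little.

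**Figure D1:**
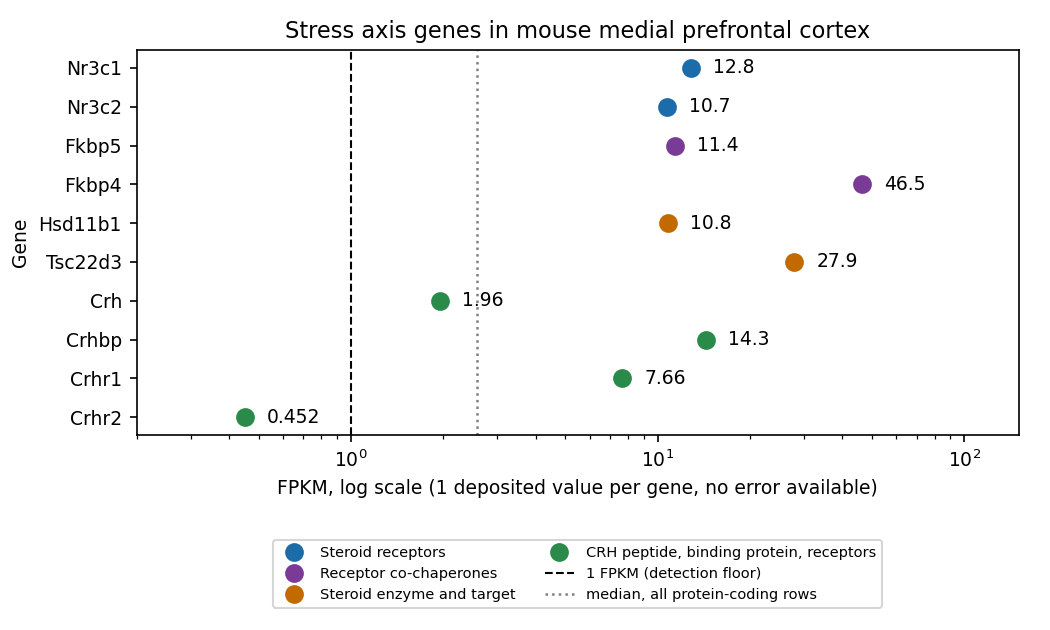
FPKM of the 10 stress axis genes on a log axis, 1 deposited value per gene with no error available, coloured by role. The dashed line marks 1 FPKM and the dotted line the median of all protein-coding genes (2.58 FPKM). Crhr2 lies left of both lines, Crh between them, and the other eight genes right of both.

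The labelled tissue was checked first. All 6 markers of cortical excitatory neurons were detected, with Camk2a highest at 701 FPKM, as were all 8 of inhibitory neurons (18.6 to 300.8 FPKM) and all 6 each of astrocytes, oligodendrocytes, microglia and endothelium. None of 8 hypothalamic markers was detected, with Trh highest at 0.601 FPKM and Avp and Oxt, the paraventricular peptides, at 0.0628 and 0.0566 FPKM. None of 6 anterior pituitary markers was detected, with Pou1f1 highest at 0.452 FPKM. Of 7 striatal markers 5 were detected (median 1.96 FPKM), and all 6 choroid plexus markers were (median 6.65 FPKM, Ttr at 566 FPKM). Both lists mark tissue near the labelled one, and the part of such tissue in the levels given here was not tested.

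The receptor genes stood close together. Nr3c1, the glucocorticoid receptor (ENSMUSG00000024431, chromosome 18, 39410545 to 39519421 in GRCm38), was at 12.8 FPKM, above 87.6% of all genes and 75.4% of protein-coding genes. Nr3c2, the mineralocorticoid receptor (ENSMUSG00000031618, chromosome 8, 76898083 to 77245012), was at 10.7 FPKM, above 72.1% of protein-coding genes. The ratio of Nr3c1 to Nr3c2 was 1.201, and with no spread between libraries the order of these receptors is not established. Both exceeded the other steroid hormone receptor genes of the list. Nr3c1 was 3.32-fold and Nr3c2 2.76-fold above Pgr, the progesterone receptor, at 3.87 FPKM. The oestrogen receptor genes Esr1 and Esr2 were at 0.292 and 0.0708 FPKM.

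The co-chaperone genes differed. Fkbp4, whose protein helps the hormone-bound receptor reach the nucleus, was the highest of the 10 at 46.5 FPKM (chromosome 6, 128430103 to 128438656), above 93.0% of protein-coding genes. Fkbp5, whose protein lowers the receptor's hormone affinity and which is itself switched on by glucocorticoids, was at 11.4 FPKM (chromosome 17, 28398753 to 28486149). The ratio of Fkbp5 to Fkbp4 was 0.245. In the family of 15 FK506-binding protein genes, Fkbp4 had rank 5 and Fkbp5 rank 7. The small cytosolic Fkbp1a led at 339 FPKM, followed by Fkbp8 at 156 and Fkbp3 at 107 FPKM, while Fkbp11 and Fkbp6 were lowest at 0.871 and 0.0340 FPKM.

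The listed chaperone genes of the receptor complex were higher than the receptors, while the co-chaperone gene Fkbp5, at 11.4 FPKM, lay between Nr3c1 and Nr3c2. All 15 chaperone genes of the list passed the floor (median 54.4 FPKM), as did 58.6% of all protein-coding genes. Highest were the HSP90 genes Hsp90ab1 (596 FPKM) and Hsp90aa1 (299 FPKM) and the HSP70 gene Hspa8 (484 FPKM), and Ppid, another immunophilin of the complex, and Dnajb1 were lowest at 26.7 and 18.2 FPKM. Hsp90ab1 and Hspa8 have pseudogenes that could share their reads. Each of the 15 genes was above both Nr3c1 and Nr3c2. All 11 coregulator genes passed it too (median 12.7 FPKM), close to the receptors themselves. The corepressor gene Ncor1 was at 71.2 FPKM and the arginine methyltransferase gene Carm1 at 22.0 FPKM, while the acetyltransferase gene Crebbp was at 4.09 and Nrip1 at 3.75 FPKM.

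Hsd11b1 encodes the reductase that regenerates active corticosterone from its inert keto form inside cells. It was at 10.8 FPKM (ENSMUSG00000016194, chromosome 1, 193221640 to 193264045), almost the same as Nr3c2. Hsd11b2, the opposing dehydrogenase of mineralocorticoid target tissue such as kidney, was at 0.0149 FPKM, so that Hsd11b1 was 721-fold higher. That ratio rests on a value near 0, and with 1 FPKM added to each gene the log2 difference was 3.54 in place of 9.49. H6pd, which supplies the reductase with its cofactor, was at 1.68 FPKM, and Hsd11b1 was 6.42-fold above it.

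Against 58.6% of all protein-coding genes, 4 of 15 genes of steroid synthesis and handling were detected, at a median of 0.0174 FPKM. The efflux pump gene Abcb1a, which keeps some steroids such as dexamethasone out of the brain, was highest at 6.59 FPKM, followed by the steroid reductase gene Srd5a1 at 3.21 FPKM and H6pd. Cyp11a1, the side-chain cleavage enzyme that opens steroid synthesis, stood at 1.39 FPKM, and Star, which brings cholesterol to it, at 0.961 FPKM. Cyp11b1, which makes corticosterone in the adrenal cortex, was at 0.00637 FPKM. Cyp11b2, the aldosterone synthase, and Serpina6, the plasma corticosteroid carrier, were listed at 0.

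Tsc22d3, a leucine zipper protein gene that glucocorticoids switch on, was at 27.9 FPKM (ENSMUSG00000031431, chromosome X, 140539528 to 140600522), above 87.5% of protein-coding genes. It was 2.44-fold above Fkbp5, the other glucocorticoid target of the group. Its paralog Tsc22d1 was higher, at 164 FPKM, giving a ratio of Tsc22d3 to Tsc22d1 of 0.169. Tsc22d4 was at 57.2 FPKM and Tsc22d2 at 4.24 FPKM. Of 24 further glucocorticoid response genes 20 passed the floor (median 7.21 FPKM), against 58.6% of all protein-coding genes (median 2.58 FPKM). The median of protein-coding genes at 1 FPKM or more was 9.86 FPKM. The metallothionein genes Mt1 and Mt2 were at 305 and 152 FPKM and the connexin gene Gjb6 at 50.02 FPKM, while Plin4 and Lcn2 were lowest at 0.567 and 0.165 FPKM. Among all 26 response genes Tsc22d3 had rank 5, next to the kinase gene Sgk1 at 26.7 FPKM, and Fkbp5 rank 10, next to the phosphatase gene Dusp1 at 11.6 FPKM. The animals were untreated, so these levels come with no comparison to hormone or stress.

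Crh, the peptide gene, was detected at 1.96 FPKM (ENSMUSG00000049796, chromosome 3, 19693401 to 19695396), above 47.2% of protein-coding genes. It was above 72.4% of all genes and 12.4% of those at 1 FPKM or more, so its rank depends on the genes it is set against. An annotated long non-coding RNA gene, Gm42189, overlaps 1124 of the 1996 bases of Crh, and whether the counting used strand is not stated, so this stretch cannot be assigned with certainty. Crh was 22.6-fold above Ucn, the related peptide urocortin, at 0.0867 FPKM. This ratio rests on a value near 0, and its log2 of 4.497 became 1.44 with 1 FPKM added to each gene. The peptides Ucn2 and Ucn3, which prefer the receptor encoded by Crhr2, were at 0.0198 and 0.00444 FPKM. In cortex CRH is known from interneurons, some of which contain VIP, and the ratio of Crh to Vip was 0.0906, with Vip at 21.6 FPKM.

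Crhbp, which encodes the secreted protein that binds CRH and keeps it from its receptors, was at 14.3 FPKM (ENSMUSG00000021680, chromosome 13, 95431376 to 95444831). The ratio of Crh to Crhbp was 0.137. In cortex Crhbp is known from somatostatin interneurons, and the ratio of Crhbp to Sst was 0.0482, with Sst at 297 FPKM. Crhbp was thus the highest of the CRH genes. It also lay above Nr3c1 (12.8 FPKM) and Nr3c2 (10.7 FPKM), but with 1 value per gene that order is not established.

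Crhr1, the main CRH receptor of cortex, was at 7.66 FPKM (ENSMUSG00000018634, chromosome 11, 104130463 to 104175523), above 66.2% of protein-coding genes. Crhr2, the receptor gene whose product Ucn2 and Ucn3 prefer, was at 0.452 FPKM (ENSMUSG00000003476, chromosome 6, 55090048 to 55133016). It was above 35.9% of protein-coding genes and was the only gene of the 10 under the floor. The ratio of Crhr1 to Crhr2 was 17.0, a log2 of 4.08 that became 2.58 with 1 FPKM added to each gene. Crhr2 is known from rat choroid plexus, whose 6 markers were all detected here, from 1.66 to 566 FPKM, and the part of such tissue in the Crhr2 value was not tested. The long non-coding RNA gene Gm35469 lies within Crhr1 over 21655 bases and could share reads with it. No RNA-seq value was matched to Gm35469 or Gm42189. Long non-coding RNA genes also overlap Nr3c2 (Gm10649, 2539 bases, 0.647 FPKM) and Fkbp5 (Gm22146, 9129 bases, listed at 0).

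Other peptides and receptors of the stress axis were mostly under the floor, at 2 of 14 detected and a median of 0.0712 FPKM. The count depends on the floor and was 5 of 14 at 0.5 FPKM. At 1 FPKM or more were the peptide PACAP and its receptor, Adcyap1 at 7.21 and Adcyap1r1 at 25.1 FPKM. Pomc, the precursor of ACTH, was at 0.851 FPKM, Avpr1a, a vasopressin receptor, at 0.0797 FPKM, and Mc2r, the ACTH receptor of the adrenal, was listed at 0. All 10 genes downstream of the CRH receptors passed the floor of 1 FPKM (median 30.02 FPKM), as did 58.6% of all protein-coding genes. Gnas, the stimulatory G protein subunit, was at 1061 FPKM, the cyclase gene Adcy1 at 70.5 and the kinase gene Prkaca at 69.4 FPKM, and Adcy9 and Creb1 were lowest at 12.04 and 5.93 FPKM. Overlapping imprinted transcripts make the value of Gnas uncertain.

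**Figure D2:**
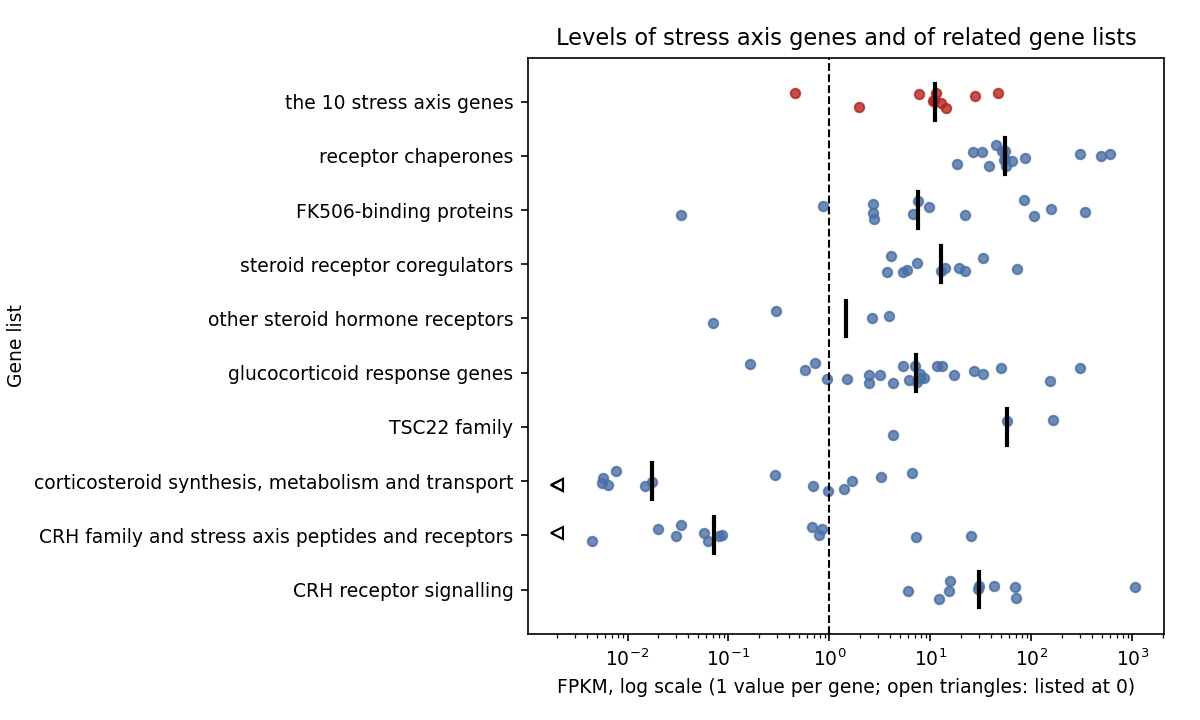
FPKM on a log axis for the 10 stress axis genes (red, top row) and 9 related gene lists (blue), 1 point per gene, with black bars at the list medians, a dashed line at 1 FPKM and open triangles for genes listed at 0. The 10 genes have a median of 11.1 FPKM, against 54.4 FPKM for the chaperones, 0.0174 FPKM for steroid synthesis and handling, and 0.0712 FPKM for the other stress axis peptides and receptors.

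**Figure D3:**
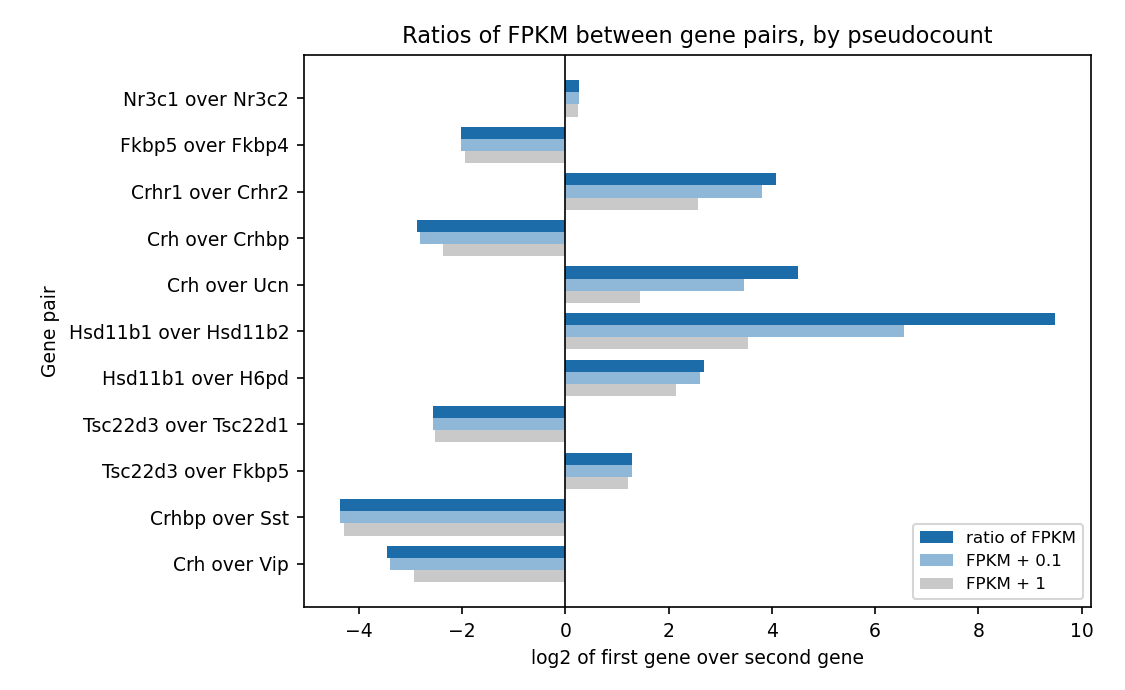
Log2 ratio of the first to the second gene of 11 pairs, as the ratio of FPKM and with 0.1 or 1 FPKM added to each gene, 1 value per gene and no error available. An equal addition to both genes cannot change the direction of a pair. Hsd11b1 over Hsd11b2 shrinks from 9.49 to 3.54, and Nr3c1 over Nr3c2 lies between 0.24 and 0.26.

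The study concerns DNA methylation, which in mammals falls on CpG dinucleotides, so the promoter sequences of the genes were examined for their CpG content. Windows of 300 bases, 250 before and 50 after an annotated start, came from RefSeq for GRCm38.p6. They were at hand for 8 of the 10 genes, with 3 windows for Tsc22d3, and Nr3c1 and Crh had none. CpG content is given as the number of CpG sites over the number that the base composition would give, and its median over 32851 windows was 0.384. Sequence says nothing of whether a site is methylated in this tissue, and a gene-level table does not tell which start was used. Further annotated starts of these genes were not used here. The windows of Hsd11b1, Crhr1 and Nr3c2, and some of Tsc22d3, lie inside the annotated gene span and not at its 5′ end.

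The receptor pair Crhr1 and Crhr2 is shown because the CpG content of the windows differs within it. The Crhr1 window (chr11:104132531-104132830, plus strand) holds 31 CpG sites with a ratio of 0.827. The Crhr2 window (chr6:55132967-55133266, minus strand) holds 5 CpG sites with a ratio of 0.192. The letters TATAAA stand 39 bases before the Crhr2 start, and 13.6% of all windows hold this motif on either strand. Capitals mark CpG sites, 5′ to 3′ along the gene.
Crhr1: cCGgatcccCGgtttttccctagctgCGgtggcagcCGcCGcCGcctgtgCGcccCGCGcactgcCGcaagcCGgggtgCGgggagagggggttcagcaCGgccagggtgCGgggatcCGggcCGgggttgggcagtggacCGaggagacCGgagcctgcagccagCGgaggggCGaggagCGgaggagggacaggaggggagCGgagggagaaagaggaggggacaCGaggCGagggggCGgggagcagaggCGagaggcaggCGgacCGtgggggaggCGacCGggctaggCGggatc
Crhr2: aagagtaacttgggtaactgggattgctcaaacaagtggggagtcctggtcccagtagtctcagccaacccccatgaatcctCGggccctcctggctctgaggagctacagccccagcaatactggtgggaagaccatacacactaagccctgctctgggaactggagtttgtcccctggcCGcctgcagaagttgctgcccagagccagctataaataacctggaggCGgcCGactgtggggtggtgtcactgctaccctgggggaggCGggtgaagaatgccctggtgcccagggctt

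The co-chaperone pair is shown because both windows are rich in CpG although their levels differ. The Fkbp5 window (chr17:28486100-28486399, minus strand) holds 32 sites with a ratio of 0.872, and 4 matches to GGGCGG, the letters of the GC box. The Fkbp4 window (chr6:128438607-128438906, minus strand) holds 33 sites with a ratio of 1.08, above 97.3% of all windows, and 3 such matches. GGGCGG is found on either strand in 35.7% of all windows. Capitals again mark CpG sites.
Fkbp5: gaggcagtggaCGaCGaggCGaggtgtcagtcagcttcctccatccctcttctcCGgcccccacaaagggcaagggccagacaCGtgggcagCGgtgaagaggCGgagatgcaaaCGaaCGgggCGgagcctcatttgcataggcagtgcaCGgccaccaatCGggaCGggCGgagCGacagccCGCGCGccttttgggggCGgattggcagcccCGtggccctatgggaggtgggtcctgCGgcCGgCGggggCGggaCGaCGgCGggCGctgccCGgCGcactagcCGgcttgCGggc
Fkbp4: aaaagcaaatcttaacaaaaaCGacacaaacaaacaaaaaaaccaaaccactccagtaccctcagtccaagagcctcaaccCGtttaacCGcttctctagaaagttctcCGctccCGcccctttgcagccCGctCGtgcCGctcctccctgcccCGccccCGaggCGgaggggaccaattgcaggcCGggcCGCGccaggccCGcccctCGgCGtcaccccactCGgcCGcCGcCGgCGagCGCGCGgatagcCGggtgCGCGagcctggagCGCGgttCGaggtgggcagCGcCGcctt

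Hsd11b1 is shown because its window is poor in CpG while its RNA was well above the floor. The window (chr1:193242311-193242610, minus strand) holds 6 CpG sites with a ratio of 0.268. It lies inside the gene span, whose 5′ end on this strand is at 193264045. Sequence at that end was not examined. Capitals mark CpG sites.
Hsd11b1: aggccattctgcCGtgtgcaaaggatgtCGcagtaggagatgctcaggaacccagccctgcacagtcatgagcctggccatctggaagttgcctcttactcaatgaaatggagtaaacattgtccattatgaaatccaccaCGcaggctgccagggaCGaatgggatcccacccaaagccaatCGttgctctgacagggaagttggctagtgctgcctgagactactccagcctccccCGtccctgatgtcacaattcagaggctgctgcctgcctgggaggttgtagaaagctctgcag

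The remaining 5 windows ranged from 0.169 to 0.710 in CpG ratio. The Nr3c2 window had a ratio of 0.537 and the Crhbp window 0.521. The 3 Tsc22d3 windows had ratios of 0.594, 0.169 and 0.710, so that its annotated starts include a CpG-poor one. The Crhbp window holds TATAAA beginning at base 31 after the start. The cyclic AMP response element TGACGTCA, a target of the CRH receptor pathway, is in 1.79% of all windows on either strand and in none of these 10. Crh and Nr3c1, without a window, could not be searched for it.

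Set against all 16563 protein-coding genes with a window, these genes fell in all 6 classes of CpG content. In the class under 0.2, 9.51% of genes were detected, and in the classes above it 27.2%, 58.9%, 81.8%, 89.6% and, at 1.0 or more, 93.1%. Hsd11b1, classed by a window inside its gene span, was higher than 91.4% of the 2489 genes of its class, whose median was 0.0855 FPKM. Crhr2, though under the floor, was above 86.6% of the 3419 genes of its class, whose median gene was listed at 0. Crhr1, in the class of 0.8 to 1.0, was above 43.2% of the genes there, and Fkbp5 above 55.3% in the same class (median 9.48 FPKM). Fkbp4 was above 86.5% of its class and Tsc22d3, classed by the richest of its 3 windows, above 82.6%. Nr3c2 and Crhbp, in the class of 0.4 to 0.6, were above 76.1% and 80.0% of it. With the 250 bases before the start alone, both fell in the class of 0.6 to 0.8, above 59.5% and 67.5% of it. These are ranks among genes of 1 sample, with no test.

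**Figure D4:**
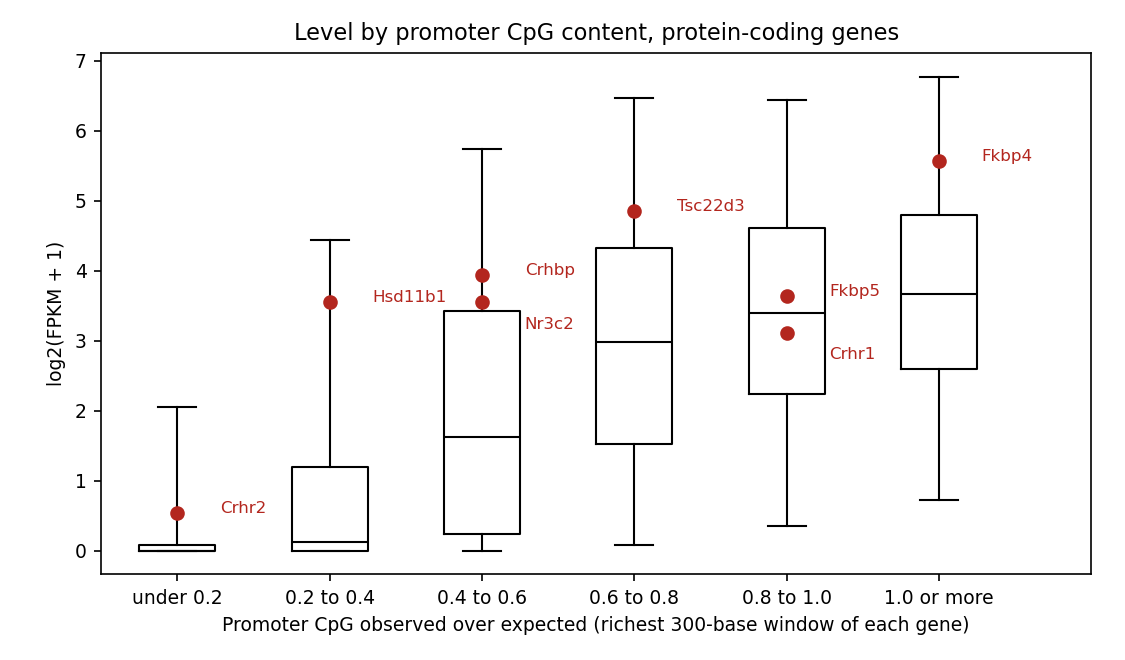
log2(FPKM + 1) of 16563 protein-coding genes by promoter CpG ratio (observed over expected, richest window of each gene), with boxes at the quartiles, lines at the medians and whiskers at the 5th and 95th percentiles, and 8 stress axis genes as red points. Hsd11b1 lies far above the box of its class, at the 91.4th percentile, while Fkbp5 and Crhr1 lie inside the box of theirs.

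The windows were also searched for the glucocorticoid response element, the paired motif that the receptor binds. The full letters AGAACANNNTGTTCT, the same on both strands, are in 3 of 32851 windows and in none of the 10 windows of these genes. A looser form, GNACANNNTGTNC, is in 0.475% of windows and again in none of the 10. Motifs this rare would be missing from most sets of 10 windows, so their absence does not set these genes apart. Sites outside the windows were not searched, and Nr3c1 and Crh had no window. The single arm AGAACA, on either strand, is in 19.0% of windows and in 1 of the 10, the Tsc22d3 window at chrX:140600473-140600772. The looser form overlaps the full one. Among the 24 further response genes, 21 had a window, and 4 of their 29 windows held the looser form, each shown here with 5 flanking bases in lower case and the match in capitals. The match lies 94 bases before the start in Mt1 (chr8:94178995-94179007), 188 in Sgk1 (chr10:21993702-21993714), 181 in Map3k6 (chr4:133240637-133240649) and 172 in Txnip (chr3:96557785-96557797), all on the plus strand.
Mt1: tatagGGACATGATGTTCcacac
Sgk1: ggaaaGAACAGAATGTTCtcgga
Map3k6: tagggGCACAGGCTGTTCcggaa
Txnip: taggaGCACACCGTGTCCacgcg
The Sgk1 match is part of the full motif as well. In these 4 genes the RNA level ranged from 2.46 FPKM in Map3k6 to 305 FPKM in Mt1. A match is a description of letters, and the looser form was chosen after the windows had been read.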

How the data were processed

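RNA from mPFC of untreated mice was made into libraries with the TruSeq RNA v2 kit, per the labels' protocols. CASAVA 1.8.2, TopHat and Cufflinks with build mm10 are named in the submitters' processing notes. How replicates were combined, the annotation release, the strand setting and other versions: not given in the sources used here. FPKM is the unit of the authors' deposited table, and the 2 value columns are equal in 46073 of 46073 rows, so they were counted as 1 sample. Among 92 single-exon receptor genes, 16 shared a value of FPKM times length less 204 bases within 0.01%, but 21.7% were whole multiples of it within 1% of the step. Fragment counts were therefore not recovered, depth is unknown and no counting interval is given.

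Identifiers were matched to symbols for 45139 rows, and 934 stayed without one. Gene classes, coordinates and promoter windows came from RefSeq GRCm38.p6, the assembly of mm10, matched by symbol. The 10 genes, 9 related lists, 10 marker lists and 11 pairs were chosen with earlier results of these data known. The named genes are the 10 members, the pair genes and the 3 highest and 2 lowest of each related list, with marker lists given mainly by their ranges, and a few of these are not reported here. Cyp11a1, Star, Cyp11b1, Ucn2, Avp, Oxt, Avpr1a, Dusp1, Sgk1, Map3k6 and Txnip were named outside that rule, after their values were seen. With 1 value per gene the planned limma test was not run. Simulated data served only to check a plain count of CG letters and a quantile, and the CpG ratio itself was not tested on them. The tools were pandas 2.3.3, numpy 2.4.6, matplotlib 3.10.9 and Python 3.11.15.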

Additional observations from a re-analysis of the deposited data

How the results depend on the processing

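The count of 9 detected stress axis genes became 10 with a floor of 0.1 FPKM or with FPKM rescaled to a fixed sum without mitochondrial genes, where Crhr2 passed, and 8 with a floor of 2 FPKM, where Crh did not. Adding the same amount to both genes of a pair cannot change its direction, so only the size of the log2 differences was compared. Of 11 pairs 3 moved by over 1.5-fold. With 1 FPKM added, the log2 difference was 2.58 for Crhr1 over Crhr2 (4.08 as a ratio), 1.44 for Crh over Ucn (4.497) and 3.54 for Hsd11b1 over Hsd11b2 (9.49). With 0.1 FPKM added the last pair stood at 6.56 and Crh over Ucn at 3.46. Detected genes of steroid synthesis and handling were 7 at a floor of 0.1 and 2 at a floor of 2 FPKM, against 4. Other stress axis peptides and receptors were 5 at floors of 0.1 and 0.5 FPKM and 4 or 5 after rescaling, against 2. Percentiles of the 10 genes were given among all genes or protein-coding genes, and 8 of 20 values among protein-coding or detected genes were over 1.5-fold below those among all genes, as for Crh (72.4 among all, 12.4 among detected). With the 250 bases before the start alone, all 10 window ratios stayed within 1.5-fold, but Nr3c2, Crhbp and Crhr1 fell in the class of 0.6 to 0.8. Multiplying FPKM by transcript length was not run, as the reference tables used give gene spans and no transcript lengths. Leaving out libraries could not be done with 1 value per gene. No paired analysis was possible because the table holds 1 sample and no second group. Unknown depth limits all values near 0.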
